A study of Mus musculus with 18 samples.

Results

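Dietary protein is taken up by the intestinal epithelium as free amino acids and as short peptides, and 9 genes of this step, chosen by symbol, were followed here among the 43346 genes of the count table. They code for a peptidase of the brush border (*Anpep*), the peptide carrier of the apical membrane (*Slc15a1*), apical amino acid carriers (*Slc6a19*, *Slc1a5* and the light chain *Slc7a9* with its heavy chain *Slc3a1*) and basolateral exchangers (the light chains *Slc7a7* and *Slc7a8* with their heavy chain *Slc3a2*). All 9 were in the table, and all 9 passed the filter of a mean count above 0. RNA had been sequenced from EPCAM-positive cells of crypts of the small intestine (SI) and the large intestine (LI), sorted by the level of GFP. Centre cells had high GFP, border cells medium GFP and row >3 cells, those farthest up from the crypt base, low GFP. The mice were untreated, of strain C57BL/6, 8 to 20 weeks old per the labels, and all of them carried the Lgr5_eGFP_Iris_creERT2 allele, which puts eGFP and an inducible Cre under the control of the *Lgr5* locus and is known to be active in only some of the crypts. There were 3 replicates in each of 6 groups, 18 libraries in all, with 8312093 to 31940965 reads counted on genes per library.

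Enterocytes digest and absorb protein in steps. Peptidases anchored in the microvilli cut peptides at the cell surface, the proton-coupled carrier PEPT1, the product of *Slc15a1*, takes up peptides of very short length, and sodium-coupled carriers and exchangers take up single amino acids. Amino acids leave the cell to the blood side through exchangers made of a light chain, which forms the pore, and a heavy chain, which brings the light chain to the membrane. The SI is the main site of this uptake, whereas the LI is known above all for the absorption of salt and water. Crypts hold dividing cells that mature as they move up, and mature enterocytes lie on the villi of the SI and at the surface of the LI.

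The labels were checked on markers. Genes of SI identity (*Gata4*, *Onecut2* and *Ccl25*) summed to between 83.7 and 175 CPM (counts scaled to library size) in the SI libraries and to between 7.39 and 14.9 in the LI libraries. Colonocyte genes, 8 with *Car1*, *Car4* and *Aqp8* among them, summed to 276, 2216 and 3661 CPM in the centre, border and row >3 libraries of SI replicate 3, against 22.4 to 196 in the other SI libraries and 372 to 2126 in the LI. The libraries of replicate 3 of the SI thus stood apart, and counts of called genes in comparisons with SI libraries are given with and without them. The labels do not give the segment of the SI, and the part of colonocyte RNA in the results was not tested. The replicate 2 libraries of both sites had 542 to 1419 counts of the Y-linked genes *Ddx3y* and *Eif2s3y*, against at most 1 count in any other library. The part of the sex of the mice in the results was not tested.

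The tables do not tell which mouse a replicate came from, so the p-values measure the spread between these libraries. In bulk RNA of sorted cells, a higher share of cells that express a gene and more RNA per cell cannot be told apart. Normalised counts are the reads of a gene divided by the size factor of the library. Where 3 values follow each other, they stand for replicates 1, 2 and 3. Fold changes are given on the log2 scale with their standard error (SE) from edgeR's quasi-likelihood test, and adjusted p stands for Benjamini-Hochberg adjustment over all 26717 genes tested. A gene is said to be called, to have risen or to have fallen at an adjusted p under 0.05.

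**Figure D1:**
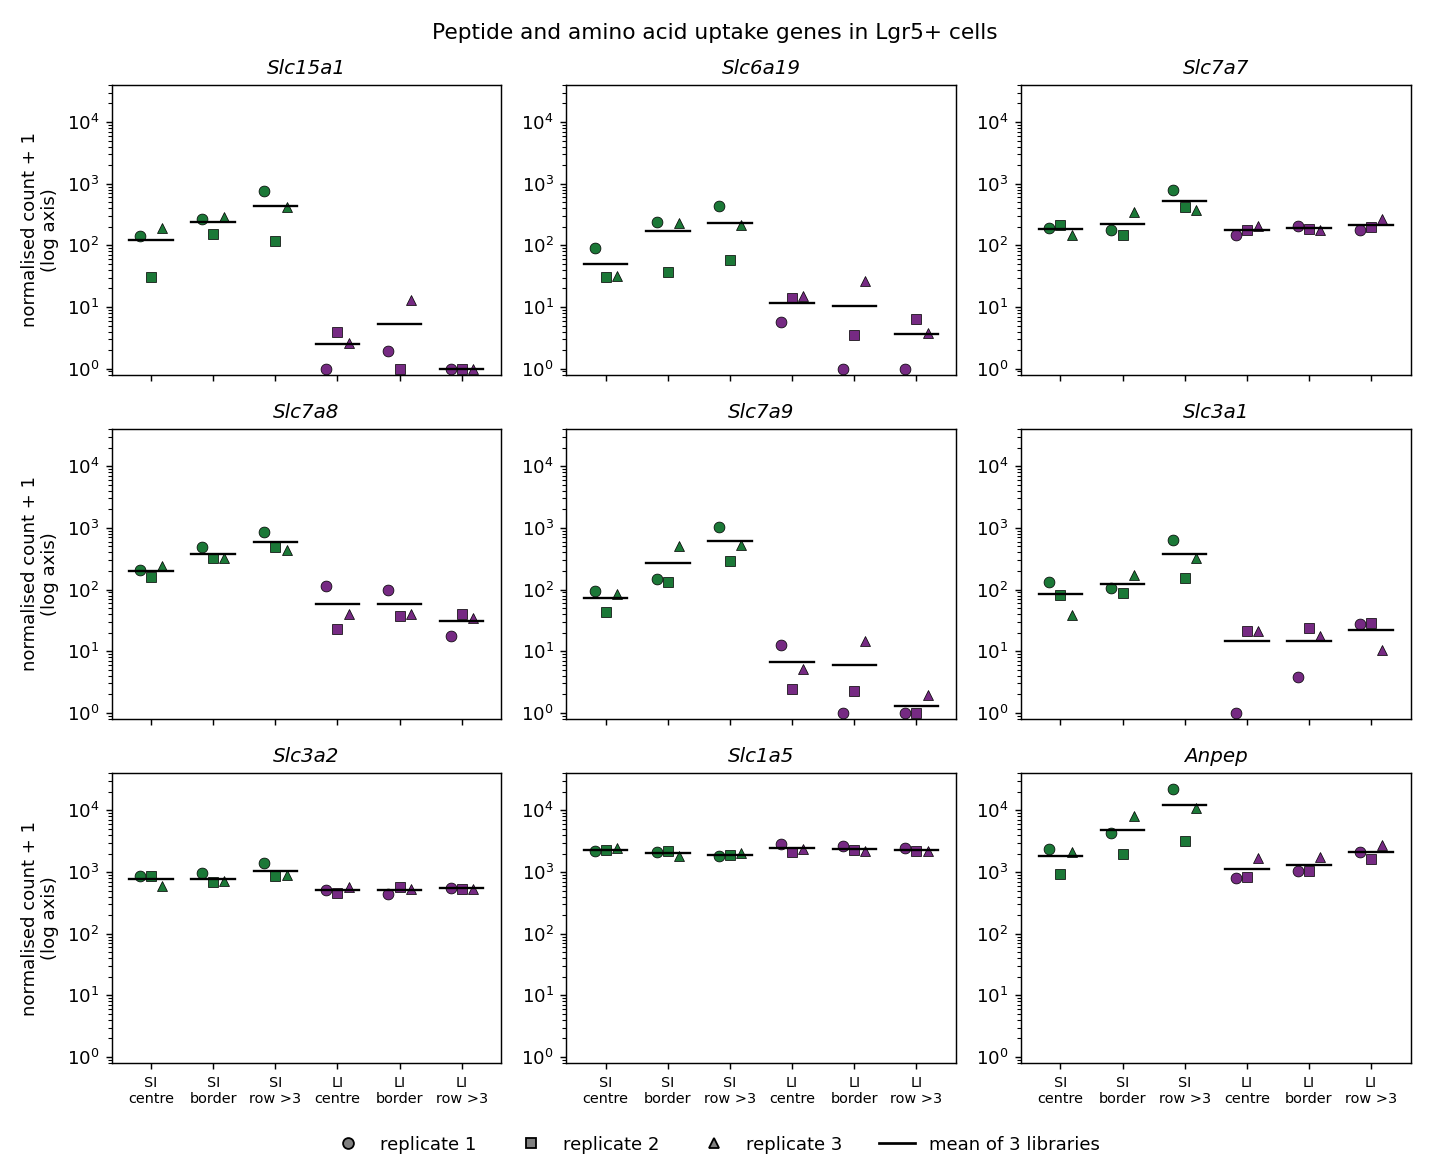
Normalised counts plus 1 of the 9 genes on a log axis, 1 panel per gene, with 1 point per library, its shape for the replicate, and the mean of 3 libraries as a line. *Slc15a1*, *Slc6a19*, *Slc7a8*, *Slc7a9* and *Slc3a1* lie lower in every LI library than in every SI library of the same level, whereas *Slc1a5* lies between 1789 and 2833 in all 18 libraries.

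*Slc15a1* lies at chr14:121459621-121505252 on the minus strand (mm10), with an exon length of 4.885 kb. In the SI it had 143, 29.5 and 188 normalised counts in centre cells, 265, 153 and 288 in border cells and 752, 118 and 420 in row >3 cells. In the LI it had 0, 2.92 and 1.64 in centre, 0.917, 0 and 11.9 in border and 0 in all 3 row >3 libraries. RNA of the peptide carrier was therefore present at every level of the SI and close to the limit of detection in the LI, and the 2 sites did not overlap at any level. Between the sites it differed by 5.97 (SE 1.10, adjusted p = 0.00608) in centre cells and by 5.42 (SE 0.90, adjusted p = 0.00308) in border cells. Of 16 alternatives, 13 called it in centre (adjusted p up to 0.0887), 16 in border and 15 in row >3 cells (adjusted p up to 0.118). In row >3 cells the 1518 counts of the SI stood against 0 in the LI, and the SI was at least 522-fold higher when the LI was set to a floor of 3 counts over the group (adjusted p = 6.10e-05). Without SI row >3 replicate 1, the bound was at least 254-fold. From centre to row >3 of the SI, *Slc15a1* rose by 1.84 (SE 0.59, adjusted p = 0.0436), although replicate 2 of row >3, at 118, lay below replicates 1 and 3 of the centre. DESeq2 did not call this rise (adjusted p = 0.226), and over the 16 alternatives the adjusted p ran from 3.01e-04 to 0.321.

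*Slc6a19* codes for B0AT1, the main sodium-coupled carrier of neutral amino acids in the brush border, and lies at chr13:73679745-73704865 on the minus strand. Its 3 SI centre libraries had 88.3, 29.5 and 30.8 normalised counts, the border libraries 241, 36.3 and 231 and the row >3 libraries 428, 57.7 and 212. The LI had 4.70, 13.1 and 13.9 in centre, 0, 2.5 and 25.3 in border and 0, 5.31 and 2.83 in row >3 cells. Replicate 2 was the lowest of its group at each level of the SI, by a wide margin in border and row >3 cells. Between the sites, *Slc6a19* differed by 2.10 (SE 0.96, adjusted p = 0.316) in centre cells, which did not pass the threshold, by 3.88 (SE 0.92, adjusted p = 0.0331) in border cells and by 6.24 (SE 1.08, adjusted p = 0.00176) in row >3 cells. In border cells 8 of 16 alternatives called it, with an adjusted p up to 0.159. The rise from centre to row >3 of the SI was 2.23 (SE 0.71, adjusted p = 0.0449), with an adjusted p from 6.63e-05 to 0.335 over the alternatives. An antisense gene, *Slc6a19os*, overlaps this gene on the opposite strand and had at most 0.917 normalised counts in any library.

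*Slc7a9* and *Slc3a1* form b0,+AT with rBAT, the apical exchanger of cystine and cationic amino acids whose loss is known to cause cystinuria. *Slc7a9*, the light chain at chr7:35448796-35466036 on the plus strand, had 92.4, 42.4 and 84.9 normalised counts in centre, 149, 132 and 513 in border and 1034, 287 and 531 in row >3 cells of the SI. In the LI it had 11.8, 1.46 and 4.09, then 0, 1.25 and 13.4, and in row >3 cells 0, 0 and 0.943. The levels of the SI were ordered centre, border and row >3, and centre overlapped neither of the others. The light chain was higher in the SI by 3.78 (SE 0.94, adjusted p = 0.0477) in centre and by 5.49 (SE 0.86, adjusted p = 0.00290) in border cells. Of the 16 alternatives, 8 called it in centre cells (adjusted p up to 0.232) and 16 in border cells. In row >3 cells, 2215 counts in the SI stood against 1 in the LI (adjusted p = 5.44e-05), a ratio of 2285 after scaling to library size with a 95% exact interval of 410 to 90292, which covers counting error only. Without SI row >3 replicate 1 the ratio was 1281. Its rise from centre to row >3 of the SI was the largest among the 9 genes, at 3.08 (SE 0.61, adjusted p = 0.00252), and was called under all 16 alternatives. The rise from centre to border of the SI was 1.90 (SE 0.61, adjusted p = 0.324) and was not called, but was in a fit that paired the replicates within each site as a block (1.96, adjusted p = 0.0285).

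The heavy chain *Slc3a1*, at chr17:85028376-85064236 on the plus strand, had 131, 79.2 and 38.2 normalised counts in centre, 104, 88.1 and 171 in border and 646, 150 and 326 in row >3 cells of the SI. LI libraries had 0, 20.4 and 20.4 in centre, 2.75, 22.5 and 16.4 in border and 26.4, 27.3 and 9.43 in row >3 cells. Centre and border overlapped in the SI, and row >3 lay above the centre in all 3 libraries. Between the sites it differed by 2.41 (SE 0.71, adjusted p = 0.0943) in centre, 3.14 (SE 0.74, adjusted p = 0.0350) in border and 4.07 (SE 0.65, adjusted p = 9.21e-04) in row >3 cells, and from centre to row >3 of the SI it rose by 2.18 (SE 0.56, adjusted p = 0.0125). The difference between the sites in border cells was called in 8 of 16 alternatives, with an adjusted p up to 0.142. The rise in the SI was called in 12 of 16, with an adjusted p up to 0.136. The 3' end of *Slc3a1* overlaps *Prepl* on the opposite strand, which had 565 to 800 normalised counts, and its lowest values are uncertain because the strand of counting is not given in the sources used here. Per kb of exon, the ratio of the heavy to the light chain was 1.66, 2.2 and 0.531 in SI centre, 0.823, 0.786 and 0.394 in border and 0.736, 0.617 and 0.724 in row >3 libraries. The heavy chain was below the light chain in every border and row >3 library of the SI.

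The bases before the starts of *Slc15a1* and *Slc3a1* are shown because both genes were higher in the SI, and because these bases overlap no exon of their gene. They were chosen from the windows after the matches were seen. They were taken from RefSeq (GRCm38.p6), where 8 of the 9 genes matched with 13 windows of 250 bases before to 50 bases after a start. Letters of 5 motifs of intestinal or amino acid response factors were searched on both strands: the CDX letters were TTTATNG, the HNF1 letters TTAATNATT, the HNF4 letters CAAAGTC, the GATA letters AGATAA and the ATF4 letters TGATGNAA. Capitals mark these letters, and both stretches are written 5' to 3' on the strand of the gene.

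Slc3a1, chr17:85028097-85028346, plus strand: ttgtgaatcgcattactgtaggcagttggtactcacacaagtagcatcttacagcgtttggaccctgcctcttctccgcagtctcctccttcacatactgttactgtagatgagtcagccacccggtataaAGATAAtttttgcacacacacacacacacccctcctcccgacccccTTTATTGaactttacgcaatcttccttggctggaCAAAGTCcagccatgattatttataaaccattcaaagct

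Slc15a1, chr14:121505255-121505504, minus strand: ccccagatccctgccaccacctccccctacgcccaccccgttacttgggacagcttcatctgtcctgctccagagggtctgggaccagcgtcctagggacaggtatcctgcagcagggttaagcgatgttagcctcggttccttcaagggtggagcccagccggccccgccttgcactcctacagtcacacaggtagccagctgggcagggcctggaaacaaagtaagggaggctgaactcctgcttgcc

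The stretch of *Slc3a1* held GATA, CDX and HNF4 letters, which began 119, 73 and 39 bases before the start. The stretch of *Slc15a1* held none of the 5 motifs in these letters. Of all 32851 windows of the same length in the table, 10.9% held the CDX letters, 1.47% those of HNF1, 4.44% those of HNF4, 11.2% those of GATA and 3.97% those of ATF4. Among the 13 windows of these genes, CDX letters were in 1, HNF1 letters in 3 (of *Slc7a9* and *Slc7a8*), HNF4 letters in 2 (of *Slc7a7* and *Slc3a1*), GATA letters in 4 (of *Slc7a9*, *Slc7a7* and *Slc3a1*) and ATF4 letters in 2 (both of *Slc7a7*). Some windows of 1 gene overlap each other, and a match describes the letters and not a site in use.

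*Slc7a7* and *Slc7a8* code for y+LAT1 and LAT2, the basolateral exchangers of cationic and of neutral amino acids, which both pair with the heavy chain 4F2hc of *Slc3a2*. *Slc7a7*, at chr14:54369442-54417780 on the minus strand, had 188, 209 and 147 normalised counts in centre, 177, 146 and 346 in border and 788, 424 and 368 in row >3 cells of the SI. In the LI it had 145, 179 and 207 in centre, 203, 183 and 179 in border and 177, 197 and 267 in row >3 cells. The light chain of cationic exchange was thus similar between the sites in mean level, at 181 and 177 in centre and 223 and 188 in border cells of the SI and LI, and the libraries of both sites overlapped at these levels. In row >3 cells it was higher in the SI by 1.25 (SE 0.31, adjusted p = 0.0232), which 13 of 16 alternatives called, with an adjusted p up to 0.293. It rose from centre to row >3 of the SI by 1.55 (SE 0.32, adjusted p = 0.00208), a call that held under all 16 alternatives. The 3' end of *Slc7a7* overlaps *Oxa1l* on the opposite strand, which had 622 to 1016 normalised counts, so part of its counts may belong to that gene.

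*Slc7a8*, at chr14:54722209-54781946 on the minus strand, had 206, 158 and 243 normalised counts in centre, 491, 320 and 319 in border and 850, 490 and 440 in row >3 cells of the SI. LI libraries had 113, 21.9 and 39.3 in centre, 96.3, 36.2 and 38.7 in border and 16.4, 39.5 and 33.0 in row >3 cells. The SI levels were ordered centre, border and row >3 without overlap between centre and the others, and the sites did not overlap at any level. Between the sites, *Slc7a8* differed by 1.84 (SE 0.46, adjusted p = 0.0424) in centre, 2.64 (SE 0.46, adjusted p = 0.00440) in border and 4.25 (SE 0.49, adjusted p = 2.57e-05) in row >3 cells. In centre cells 8 of 16 alternatives called it (adjusted p up to 0.222), and in border and row >3 cells all 16 did. It rose from centre to row >3 of the SI by 1.56 (SE 0.41, adjusted p = 0.0144), while in the LI the same contrast was -0.85 (SE 0.53, adjusted p = 0.848), and -0.03 without LI centre replicate 1. The rise in the SI was called in 13 of 16 alternatives, with an adjusted p up to 0.0961.

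*Slc3a2* codes for 4F2hc, also known as CD98, which serves exchangers in nearly every dividing cell, and lies at chr19:8706882-8723369 on the minus strand. It had 869, 855 and 600 normalised counts in centre, 961, 690 and 704 in border and 1396, 876 and 882 in row >3 cells of the SI. In the LI it had 506, 460 and 570, then 438, 576 and 536, and in row >3 cells 557, 538 and 536. Every SI library lay above every LI library, but the gap was small beside that of *Slc15a1*, *Slc6a19*, *Slc7a8*, *Slc7a9* and *Slc3a1*. The fitted difference was 0.54 (SE 0.21, adjusted p = 0.20) in centre and 0.53 (SE 0.21, adjusted p = 0.232) in border cells, which did not pass, and 0.90 (SE 0.21, adjusted p = 0.0133) in row >3 cells, which did. Of 16 alternatives, 12 called it in row >3 cells, with an adjusted p up to 0.203. From centre to row >3 of the SI the contrast was 0.45 (SE 0.20, adjusted p = 0.181), and with the replicate block within site it was 0.43 with an adjusted p of 0.0409.

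The partners of *Slc3a2* were set against each other per kb of exon, with *Slc7a5*, *Slc7a6* and *Slc7a11*, which code for LAT1, y+LAT2 and the cystine exchanger xCT, beside *Slc7a7* and *Slc7a8*. In SI centre libraries *Slc7a5* made up 55.2%, 54.7% and 40.9% of the summed level of these 5 light chains, and in SI row >3 libraries 22.9%, 30.4% and 21.1%. *Slc7a7* made up 16.6%, 18.4% and 18.6% in the centre libraries and 36.8%, 31.9% and 36.8% in the row >3 libraries, and *Slc7a8* 12%, 9.20% and 20.4% against 26.3%, 24.4% and 29.2%. The makeup of the SI thus differed between centre and row >3 cells without overlap for each of these 3 light chains. The level of *Slc7a5* itself overlapped between these groups, with means of 585 and 412 normalised counts. Its share also falls when the other light chains rise. In the LI, *Slc7a5* made up 34.5% to 58.9% and *Slc7a8* 1.45% to 8.53% over the 9 libraries, and centre and row >3 overlapped for both. SI border replicate 3 stood apart from the other border libraries, with 20.0% *Slc7a5* and 44.0% *Slc7a7*. These are shares of RNA, with no test, and they do not give the makeup of the protein complexes.

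**Figure D2:**
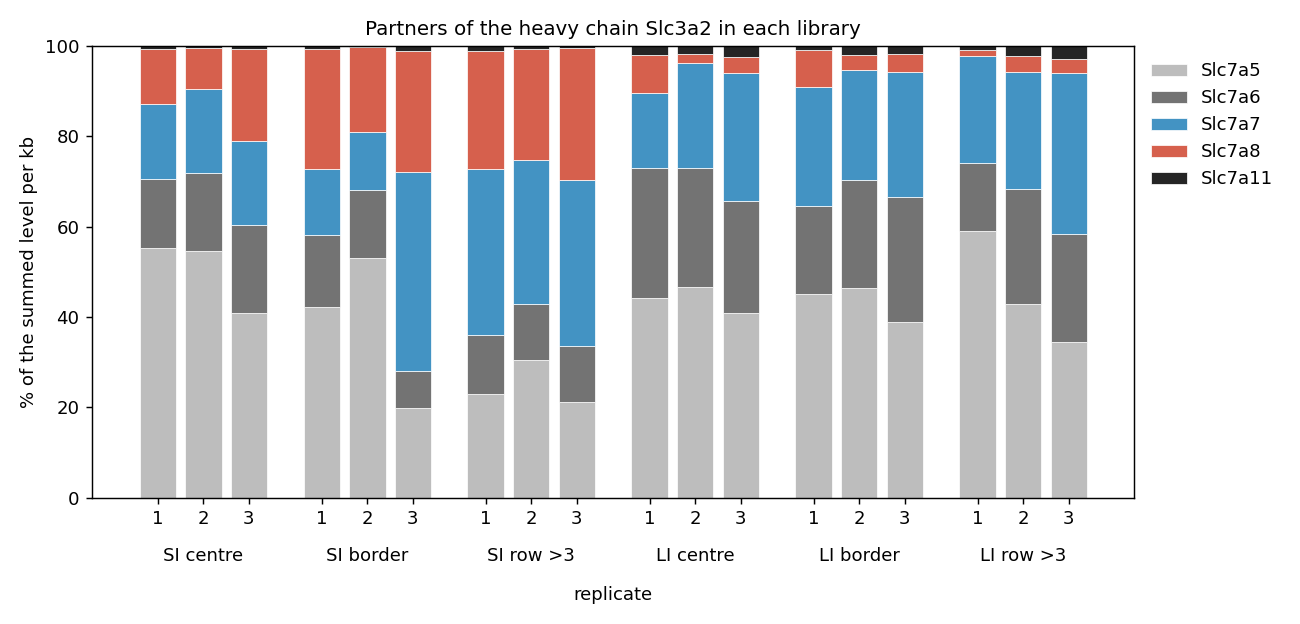
Share of each light chain, in % of the summed normalised counts per kb of exon of *Slc7a5*, *Slc7a6*, *Slc7a7*, *Slc7a8* and *Slc7a11*, in each of the 18 libraries, 1 bar per library. *Slc7a5* is at 40.9% or more in SI centre and at 30.4% or less in SI row >3 libraries, and *Slc7a8* is at most 8.53% in the LI.

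*Slc1a5* codes for ASCT2, a sodium-dependent exchanger of glutamine and other neutral amino acids that is known for its high level in dividing cells, and lies at chr7:16781340-16798274 on the plus strand. In the SI it had 2177, 2242 and 2499 normalised counts in centre, 2116, 2214 and 1789 in border and 1814, 1905 and 2022 in row >3 cells. The LI had 2833, 2144 and 2338 in centre, 2644, 2269 and 2155 in border and 2462, 2193 and 2171 in row >3 cells. Its highest library was 1.58-fold above its lowest, the narrowest range of the 9 as a fold. The fitted differences between SI and LI were below 0 at each level, at -0.13 (SE 0.14, adjusted p = 0.772), -0.27 (SE 0.14, adjusted p = 0.416) and -0.31 (SE 0.14, adjusted p = 0.289) in centre, border and row >3 cells that did not pass. Its contrast of row >3 with centre of the SI was -0.27 (SE 0.14, adjusted p = 0.270), and all 3 row >3 libraries lay below all 3 centre libraries. No alternative called *Slc1a5* in a comparison between the sites or between these 2 levels of the SI. Proliferation genes, with *Mki67* and *Pcna* among 6, summed to 2002 to 2869 CPM in SI centre and 765 to 2044 in SI row >3 cells, and their part in the level of *Slc1a5* was not tested.

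*Anpep* codes for aminopeptidase N, a peptidase of the brush border that frees amino acids from the ends of peptides, and lies at chr7:79821803-79861059 on the minus strand. It had 2334, 918 and 2115 normalised counts in centre, 4238, 1986 and 8072 in border and 22496, 3242 and 11119 in row >3 cells of the SI, and 808, 844 and 1664, then 1039, 1058 and 1753, then 2098, 1625 and 2734 in the LI. Replicate 2 was the lowest in each SI group, and replicate 1 the highest in centre and row >3 cells. *Anpep* rose from centre to row >3 of the SI by 2.78 (SE 0.70, adjusted p = 0.0189), which 12 of 16 alternatives called, with an adjusted p up to 0.138. Between the sites it differed by 0.63 (SE 0.66, adjusted p = 0.771), 1.84 (SE 0.68, adjusted p = 0.231) and 2.46 (SE 0.69, adjusted p = 0.0721) in centre, border and row >3 cells, none of which passed, although the libraries of both sites did not overlap in border and row >3 cells. DESeq2 called it in border (adjusted p = 0.0311) and row >3 cells (adjusted p = 8.89e-04), and over the 16 alternatives the adjusted p ran from 0.0165 to 0.497 and from 8.89e-04 to 0.363. In the LI, where the peptidase was also plainly counted, row >3 differed from centre by 0.96 (SE 0.66, adjusted p = 0.909).

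Compared per kb of exon, which allows levels to be set between genes, *Anpep* had the highest mean in SI row >3 cells at 2971 normalised counts per kb, followed by *Slc1a5* at 459, *Slc3a2* at 298, *Slc7a9* at 231, *Slc3a1* at 165, *Slc7a7* at 159, *Slc7a8* at 119, *Slc15a1* at 88.0 and *Slc6a19* at 46.5. In LI centre cells the order was *Slc1a5* at 584, *Anpep* at 267, *Slc3a2* at 145, *Slc7a7* at 53.4 and *Slc7a8* at 11.6, with *Slc3a1*, *Slc7a9*, *Slc6a19* and *Slc15a1* at 6.00, 2.16, 2.11 and 0.311. *Anpep*, *Slc1a5* and *Slc3a2* thus had the highest means in both of these groups. In LI row >3 cells *Slc3a1*, at 9.27, had a higher mean than *Slc7a8*, at 5.92, with libraries that overlapped. Neighbours in the order had overlapping libraries from *Slc3a2* downwards in SI row >3 cells and from *Slc7a8* down to *Slc6a19* in LI centre cells, so their order is not fixed by these libraries, whereas *Slc15a1* lay below *Slc6a19* in every LI centre library.

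Read as a group, 3 of the 9 genes were called higher in the SI in centre cells (*Slc15a1*, *Slc7a8* and *Slc7a9*), 5 in border cells (these and *Slc6a19* and *Slc3a1*) and 7 in row >3 cells (these and *Slc7a7* and *Slc3a2*), and 0 were called lower at any level. Over all genes tested, 1.19% were called higher and 0.805% lower in the SI in centre cells, 1.15% and 0.599% in border cells and 2.76% and 1.32% in row >3 cells. The median log2 fold change of the 9 genes between the sites was 1.84 at the centre level, 2.64 at the border level and 4.07 at the row >3 level, against 0 over all genes tested at each level. Without SI centre replicates 1, 2 or 3 the centre count was 1, 1 and 2, where 143, 158 and 519 of all genes were called higher. Without LI centre replicates 1, 2 or 3 it was 1, 0 and 0, where 194, 100 and 106 were, against 317 with all libraries. Without SI border replicates 1, 2 or 3 the border count was 3, 5 and 3, and without LI border replicates 1, 2 or 3 it was 3, 3 and 4, each time with *Slc15a1*, *Slc7a8* and *Slc7a9* among them. Over all genes, these fits called 168, 268 and 459, and 170, 112 and 110, higher in the SI, against 308 with all libraries. Without single row >3 libraries, the count lay between 5 and 8, where 305 to 1034 of all genes were called higher, against 738 with all libraries. Without all SI libraries of replicate 3, the counts were 5, 3 and 7, in a fit that called more of all genes, with 4.51%, 3.70% and 6.80% higher and 6.39%, 4.40% and 5.36% lower in the SI. DESeq2 called 4, 6 and 8 of the 9 higher, where 4.22%, 4.62% and 7.15% of the genes to which it gave an adjusted p were called higher and 3.33%, 2.61% and 3.54% lower. These shares also apply to the counts of the pathway lists under the same fits.

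**Figure D3:**
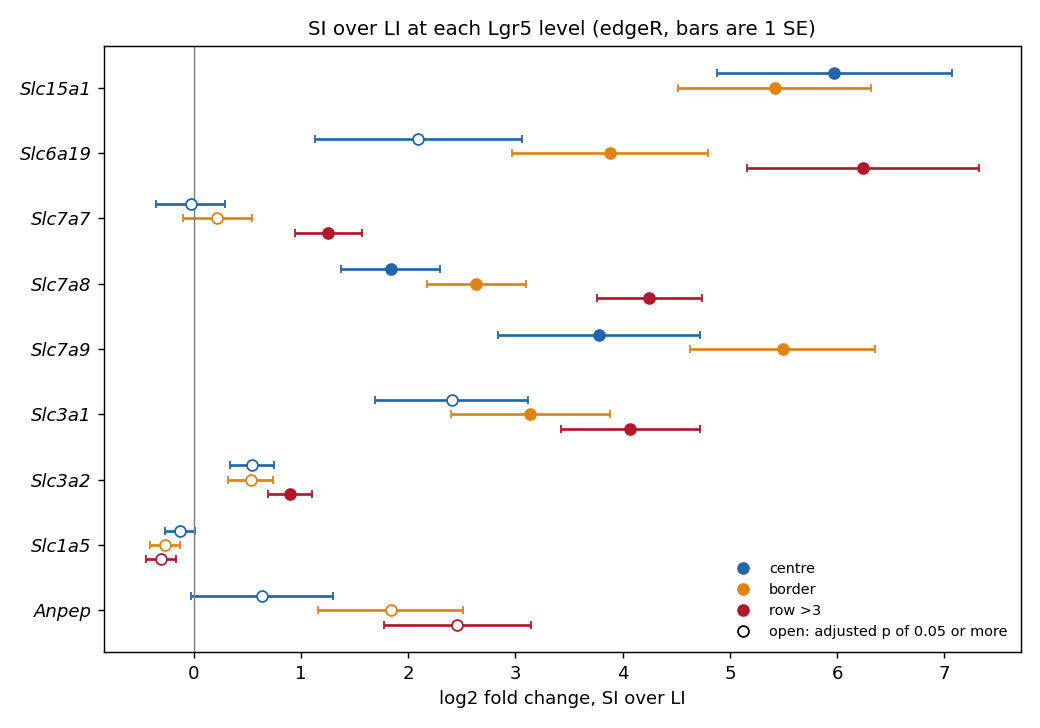
Log2 fold change of SI over LI in centre, border and row >3 cells for each gene, as points with bars of 1 SE from edgeR, filled where the adjusted p was under 0.05. *Slc15a1* and *Slc7a9* have no point in row >3 cells, where the LI had 0 and 1 counts, and *Slc6a19* runs from 2.10 in centre to 6.24 in row >3 cells.

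Within the SI, 7 of the 9 genes rose from centre to row >3 cells, all but *Slc3a2* and *Slc1a5*, where 7.35% of all genes tested were called higher and 5.82% lower. The median log2 fold change of the 9 genes was 1.84, against 0 over all genes. Without SI centre replicates 1, 2 or 3 the count was 4, 2 and 6, where 1190, 1268 and 2102 of all genes were called higher. Without SI row >3 replicates 1, 2 or 3 it was 2, 7 and 5, where 1201, 1855 and 1788 were, against 1964 with all libraries. The fits that lowered the count of the 9 most were thus also those that called the fewest of all genes higher. *Slc7a7* and *Slc7a9* were called each time. Without all SI libraries of replicate 3 the count was 6, where 9.97% of all genes were called higher, and with the replicate block within site it was 8, where 12.4% were. DESeq2 called 5 of the 9 higher, where 13.5% of its genes with an adjusted p were. Between border and centre of the SI, 0 of the 9 genes were called, where edgeR called 0.0112% of all genes, with 2 of the 9 and 8.98% of all genes at an unadjusted p under 0.05. DESeq2 called 0 of the 9 and 1.25% of its genes with an adjusted p, and edgeR without all SI libraries of replicate 3 called 0 of the 9 and 0.963% of all genes. The estimates were 0.95 for *Slc15a1*, 1.72 for *Slc6a19*, 0.87 for *Slc7a8* and 1.42 for *Anpep*, with SEs of 0.60, 0.74, 0.42 and 0.67. With the replicate block within site 2 were called, where 2.32% of all genes were, *Slc7a9* and *Slc6a19* (adjusted p = 0.0285 and 0.0170, from 0.0285 and 0.0170 to 1 over the alternatives).

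Within the LI, edgeR called 0 of the 9 genes for row >3 against centre, and 0.0187% of all genes. DESeq2 also called 0 of the 9, and 0.538% of its genes with an adjusted p. An unadjusted p under 0.05 was found for 0 of the 9 and for 6.96% of all genes. The replicate block within site also called 0 of the 9, and 2.59% of all genes. Without all SI libraries of replicate 3, 1.9% of all genes were called, with *Slc7a8* and *Anpep* not among them. Whether the others of the 9 were called in that fit is not given here. Between border and centre of the LI, edgeR called 0 of the 9 as well, and 0% of all genes, with 0 of the 9 and 1.38% of all genes at an unadjusted p under 0.05, and 0 of the 9 and 0% of all genes called by DESeq2. The median log2 fold change of the 9 genes from centre to row >3 was -0.09 in the LI. Whether the contrast of row >3 with centre differed between the sites was tested as an interaction, which called 0 of the 9 genes and 0% of all genes, with 4 of the 9 and 6.74% of all genes at an unadjusted p under 0.05. The difference was 2.41 (SE 0.67, adjusted p = 0.279) for *Slc7a8*, 1.28 (SE 0.45, adjusted p = 0.486) for *Slc7a7* and 4.15 (SE 1.69, adjusted p = 0.607) for *Slc6a19*. For *Anpep*, which was not among the 4 at an unadjusted p under 0.05, it was 1.83 (SE 0.93, adjusted p = 0.803). DESeq2 called 2, *Slc7a8* and *Slc7a9*, and 1.10% of its genes with an adjusted p, and the replicate block within site called *Slc7a8* (adjusted p = 0.0345) and 2.32% of all genes. Without all SI libraries of replicate 3, edgeR called *Slc7a7* (1.38, adjusted p = 0.0463) and 3.27% of all genes. Over the 22 alternatives the adjusted p of *Slc7a8* ran from 0.0345 to 0.878. For *Slc7a9*, all 3 row >3 libraries lay above the centre in the SI and below it in the LI, where the whole contrast rests on 17 counts in centre and 1 in row >3 cells.

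**Figure D4:**
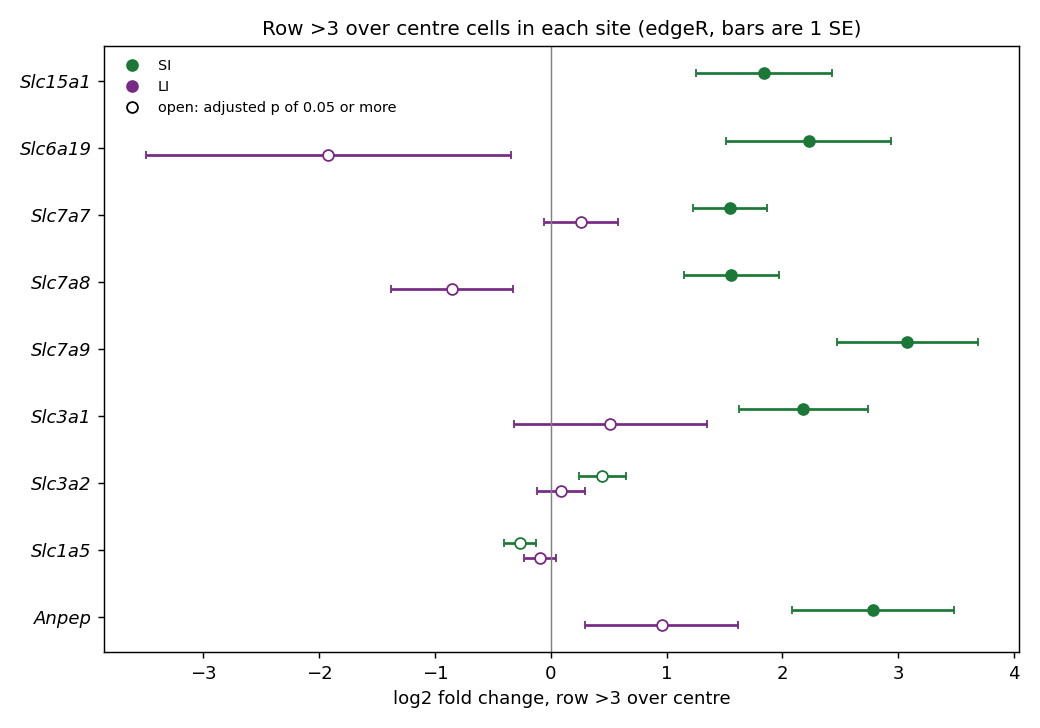
Log2 fold change of row >3 over centre cells in the SI and LI for each gene, as points with bars of 1 SE from edgeR, filled where the adjusted p was under 0.05. The SI points of 7 genes are filled, between 1.55 and 3.08, and no LI point is. *Slc15a1* and *Slc7a9* have no LI point, where row >3 had 0 and 1 counts.

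Markers of other cell types also differed between these libraries. Enterocyte markers, 11 genes with *Alpi*, *Sis* and *Fabp1* among them, summed to 624 to 880 CPM in SI centre, 888 to 1839 in border and 1480 to 3433 in row >3 cells, in the same order of replicates in row >3 as *Anpep*, and to 552 to 825 in the LI, where *Apoa4* was at 0 in centre and row >3 cells. Goblet markers summed to 716 to 10748 CPM in SI centre and 33252 to 55427 in SI row >3 cells, and to 7424 to 12129 and 16219 to 25286 in the same groups of the LI. Stem cell markers with *Lgr5* went the other way, from 1755 to 5386 CPM in centre to 139 to 669 in row >3 cells of the SI and from 833 to 901 to 221 to 413 in the LI. Paneth markers were at 215 to 7840 CPM in the SI and at 0 to 12.5 in the LI. Enteroendocrine markers summed to 44.8, 284 and 2.89 CPM in SI centre and 391, 583 and 38.3 in SI row >3 cells, and to between 26.7 and 244 in the LI. Tuft markers were at 27.7 to 396 in SI centre, 85.7 to 365 in SI row >3 cells and 130 to 304 in the LI. Immune markers summed to at most 51.9 and markers of stroma and endothelium to at most 11.9 CPM in any library. The part of these cell types in the levels of the uptake genes was not tested.

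The 9 genes were also compared with each other over the 9 SI libraries on log2(CPM + 1), as a description over libraries that share sorted levels and, in part, replicate numbers. *Anpep* and *Slc7a9* had Pearson's r = 0.96, *Anpep* and *Slc15a1* 0.94, and *Anpep* and *Slc6a19* 0.91. *Slc3a1* correlated with *Slc7a7* at 0.90 and with its own light chain *Slc7a9* at 0.88. *Slc1a5* had a negative r with each of the other 8 genes, from -0.81 with *Slc7a7* to -0.49 with *Slc15a1*. Within the 9 LI libraries, where several genes had few counts, *Slc7a8* had r = -0.85 with *Slc3a1* and 0.74 with *Slc1a5*, and *Anpep* had 0.69 with *Slc7a7*.

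**Figure D5:**
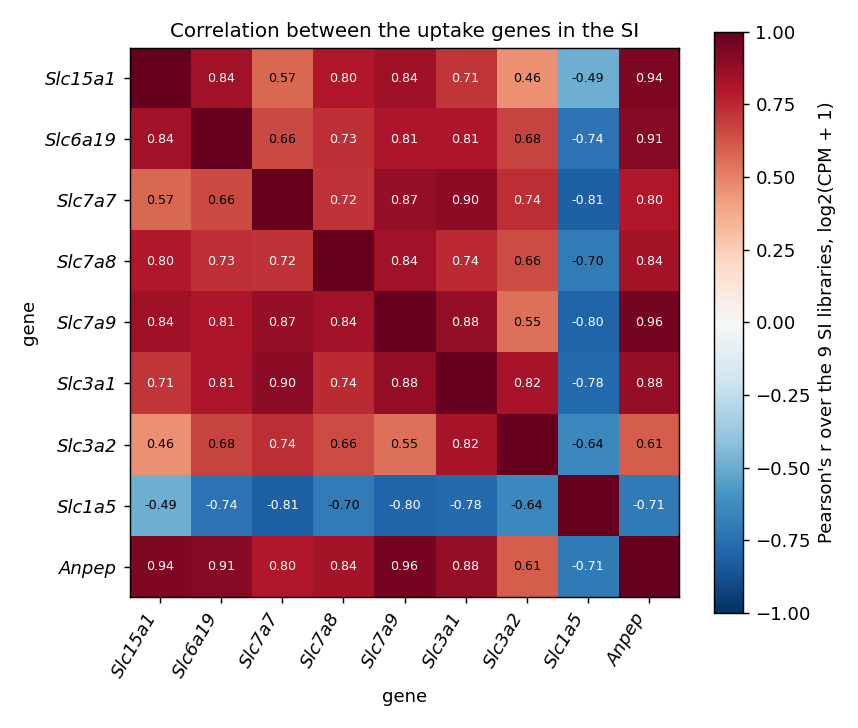
Pearson's r between each pair of the 9 genes over the 9 SI libraries, on log2(CPM + 1), from -1 in blue to 1 in red, with the value in each cell. *Slc1a5* is the one gene with negative values, and *Anpep* with *Slc7a9* has the highest at 0.96.

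Among 12977 genes with a mean of at least 1 CPM, those whose levels were most like *Slc15a1* over all 18 libraries included *Enpp7* (r = 0.99), *Plb1* (0.99), *Slc34a2* (0.99) and *Apoa1* (0.98). Within the SI alone these r values were 0.98, 0.97, 0.93 and 0.95. In the LI *Slc15a1* had at most 16 counts in a library, so no r within the LI is given for it here. *Enpp7* and *Plb1* code for a sphingomyelinase and a phospholipase of the brush border, *Slc34a2* for a phosphate carrier and *Apoa1* for a lipoprotein component. For *Slc3a2* the 5 most alike were *Xdh* (0.95), *Stom* (0.93), *Gpd1* (0.93), *Reg3b* (0.93) and *Reg3g* (0.93), with 0.93, 0.96, 0.91, 0.86 and 0.86 within the SI and 0.27, 0.65, 0.40, 0.76 and 0.84 within the LI. *Reg3b* and *Reg3g* code for antimicrobial lectins. *Slc3a1* came next in this order, at 0.93.

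Other peptidases of the brush border and cytosol showed higher calls in the SI at each level. Of 15 genes, 14 were tested, and 4, 6 and 10 were called higher in the SI in centre, border and row >3 cells and 0 lower, with medians of 1.47, 2.27 and 3.02 on the log2 scale. DESeq2 called 7, 9 and 13 higher, and without all SI libraries of replicate 3 edgeR called 4, 4 and 12. *Naaladl1*, an aminopeptidase, had 1827, 1180 and 1297 normalised counts in SI centre and 119, 134 and 171 in LI centre cells, a difference of 3.28 (SE 0.44, adjusted p = 0.00123). *Enpep*, which cuts acidic residues from peptides, differed by 3.91 (SE 0.75, adjusted p = 0.0196) in centre cells, and *Ggt1*, a glutamyl transferase, by 6.06 (SE 1.15, adjusted p = 0.00687) in border cells. In LI border cells *Ggt1* had 12 counts in replicate 3 and 0 in the others, its fold change ran from 4.62 to 11.06 over the 16 alternatives, and 12 of them called it. From centre to row >3 of the SI, 10 of the 14 rose and 0 fell, with a median of 2.11. Of all genes, 7.35% were called higher. Without replicate 3, 11 rose, beside 9.97% of all genes. Cytosolic dipeptidases were among the 10, with rises of 2.04 (SE 0.27, adjusted p = 6.56e-05) for *Cndp2* and 1.35 (SE 0.22, adjusted p = 3.53e-04) for *Pepd*, and the aminopeptidase *Lap3* rose by 1.02 (SE 0.21, adjusted p = 0.00236). In the LI, 0 of the 14 were called between levels, with 1 at an unadjusted p under 0.05 for border and 0 for row >3 cells against centre, and DESeq2 called 0 in both.

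Other amino acid and peptide transporters were mixed. Of 19 genes, 2, 3 and 3 were called higher in the SI in centre, border and row >3 cells and 1, 0 and 1 lower, with medians of 0.06, 0.04 and 0.18. DESeq2 called 3 lower in border cells, *Slc1a4*, *Slc38a2* and *Slc43a1*, and without all SI libraries of replicate 3 edgeR called 3, 4 and 5 higher and 2, 3 and 2 lower. The carrier of acidic amino acids *Slc1a1* had 704, 607 and 420 normalised counts in SI centre and 125, 119 and 139 in LI centre cells, and was higher in the SI by 2.12, 2.43 and 3.49 (adjusted p = 3.25e-04, 7.35e-05 and 4.16e-07) from centre to row >3 cells. *Slc43a2*, which lets neutral amino acids leave the cell, was higher by 1.86, 2.38 and 3.34 (adjusted p = 0.00232, 2.35e-04 and 2.44e-06). *Slc6a20a*, a proline carrier, was higher by 4.26 in border and 4.28 in row >3 cells (adjusted p = 0.0447 and 0.0121). Its SI border libraries had 130, 55.7 and 608 normalised counts, and without replicate 3 of them the difference was 2.56 (adjusted p = 0.108), with 7 of 16 alternatives calling it in border cells. *Slc1a4*, a carrier of small neutral amino acids, differed by -1.18 in centre and -1.29 in row >3 cells and was thus lower in the SI (adjusted p = 0.0325 and 0.0115), with 189, 301 and 653 normalised counts in SI centre against 857, 727 and 907 in LI centre cells. In centre cells 9 of 16 alternatives called it, with estimates from -1.80 to -0.85 and an adjusted p up to 0.218. In row >3 cells 14 of 16 did. From centre to row >3 of the SI, 4 of 19 rose and 0 fell, also without replicate 3. Of all genes, 7.35% and 9.97% were called higher in these fits. *Slc43a2* (2.13), *Slc6a20a* (3.51) and *Slc36a1* (0.73), a proton-coupled carrier, had the smallest adjusted p. The rise of *Slc36a1* was called in 9 of 16 alternatives, with an adjusted p up to 0.214. In the LI, 0 of the 19 were called between levels, with 0 at an unadjusted p under 0.05 for border and 3 for row >3 cells against centre, and DESeq2 called 0 in both.

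Genes of the amino acid response, which the factor ATF4 is known to drive when amino acids run short, had few calls with all libraries in the fit. Of 8 genes, 0, 0 and 1 were called higher and 1, 1 and 1 lower in the SI in centre, border and row >3 cells. The gene called lower was *Atf3* each time, at -1.90, -1.78 and -1.54 (adjusted p = 0.00196, 0.00398 and 0.00452), and the one called higher in row >3 cells was *Chac1*, a glutathione-degrading enzyme, at 2.82 (SE 0.81, adjusted p = 0.0436), where DESeq2 called 0 higher and the adjusted p ran from 0.00105 to 0.740 over the alternatives. Without all SI libraries of replicate 3, the counts were 1, 2 and 4 higher and 2, 1 and 2 lower. *Atf3*, which is also known to respond to cell stress, had 906, 1116 and 1002 normalised counts in SI centre and 4915, 3448 and 2577 in LI centre cells. From centre to row >3 of the SI, *Atf4* (0.80, SE 0.17, adjusted p = 0.00281) and *Chac1* (2.92, SE 0.81, adjusted p = 0.0152) rose, and 0 fell. DESeq2 called *Atf4* alone, 1 of 8 beside its share of 13.5% over all genes, and without replicate 3 the count was 3, beside 9.97% called higher over all genes. With all libraries in the edgeR fit that share was 7.35%. In the LI, 0 of the 8 genes were called between levels, with 0 at an unadjusted p under 0.05 for border and 1 for row >3 cells against centre, and DESeq2 called 0 in both.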

How the data were processed

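RNA-seq counts of 18 libraries were used, with groups from the labels. The authors demultiplexed reads with bcl2fastq, trimmed them, mapped them to mm10 with STAR, which also gave the deposited raw counts per gene. The second deposited table holds normalised counts (unit: signal), in which the counts of a library are divided by 1 DESeq2 size factor, for 24814 genes. Positions and exon lengths came from GENCODE M21 on GRCm38 (mm10), which has 42462 of the 43346 identifiers, and the annotation behind the counts is not given in the sources used here. Median depth was 21934852 reads.

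All 26717 genes with a mean count above 0 were tested with edgeR 4.0.16 (R 4.3.3) on raw counts: TMM, glmQLFit (robust, legacy option off), 6 groups fitted together (residual degrees of freedom: 12), two-sided, Benjamini-Hochberg adjustment, threshold 0.05. Alternatives were DESeq2 1.42.0, RLE factors, library size only, filterByExpr, no filter, groups compared only, a replicate block (across all libraries, or site by site), SI replicate 3 left out, each library left out, and, chosen after seeing the data, the legacy fit. The script was tested on simulated data.

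Deviations from group means (log2(CPM + 1), mean of at least 5 CPM) correlated between equally numbered libraries at 0.30 to 0.77 within a site (18 pairs) and at -0.14 to 0.42 across sites (27 pairs), so numbers were taken as pairs within a site. Between SI and LI border cells they correlated at 0.20 to 0.23, and the block across all libraries kept the 5 calls there.

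The 9 genes, 3 pathway lists, 12 marker lists and motifs were chosen with earlier results of these data known. Named were all 9 genes, for each pathway list at most 3 called genes a direction (lowest adjusted p first), and the 5 genes most like *Slc15a1* and *Slc3a2*, except for genes that are not reported here. Intervals and floors cover counting error only. Figures were drawn with matplotlib 3.10.9 in Python 3.11.15.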

Additional observations from a re-analysis of the deposited data

How the results depend on the processing

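Which of the 9 genes were called depended on the fit more than their direction did. The number of calls over all genes also depended on the fit. No log2 fold change printed above for a named gene changed sign under any alternative. In centre cells, where 3 genes were called between the sites, the count was 1 with no filter, 1 with the legacy quasi-likelihood fit, 5 without all SI libraries of replicate 3 and 6 with the replicate block within site, and 0 to 2 with each library left out in turn. Over all genes, these fits called 247, 211, 1180 and 1248 higher in the SI, and 100 to 519 with a library left out, against 317. In border cells, where 5 were called, it was 3 with no filter, 3 with the legacy fit, 3 without the SI libraries of replicate 3, and 3 to 5 with each library left out. Over all genes, these fits called 225, 266 and 968 higher in the SI, and 110 to 459 with a library left out, against 308. The block within site called these 5 in border cells and also *Slc3a2* and *Anpep* (adjusted p = 0.0330 and 0.0165). For row >3 over centre in the SI, where 7 were called, it was 4 with the legacy fit, 3 when only the groups compared were fitted and 2 to 7 with each library left out. Over all genes, these fits called 1674, 1540 and 1190 to 2102 higher in row >3 cells, against 1964. The block within site called 2 genes between border and centre of the SI, against 0. For the difference between the sites, DESeq2 called 2, the block within site 1 and the fit without the SI libraries of replicate 3 called 1 (*Slc7a7*), against 0. Among the other peptidases, with each library left out the counts higher in the SI were 1 to 4 in centre (1 without SI replicate 1 or any single LI library), 2 to 7 in border (2 without LI replicate 1 or 2) and 9 to 11 in row >3 cells, and with the block within site 8, 9 and 13, where that fit called 4.67%, 4.21% and 6.14% of all genes higher. For the other transporters, the block within site called 4 lower in centre and 4 in border cells, where it called 7.28% and 6.00% of all genes lower, and leaving out single libraries gave 2 or 3 higher and 0 or 1 lower. The rises of peptidases from centre to row >3 of the SI numbered 5 when only the groups compared were fitted. *Chac1* lost its call between the sites without SI row >3 replicate 1 or LI row >3 replicate 2 or 3. The cause of these changes was not tested. A block within site takes the spread between replicates out of the error also where the sites are compared, so its counts for SI over LI are likely too high. In the LI, depth limits *Slc15a1*, *Slc7a9*, *Slc6a19* and *Ggt1*, with at most 39 counts over the 3 libraries of any group, so folds against the LI are imprecise for them.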
